A study of Mus musculus with 14 samples.

Results

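Cohesin is a ring-shaped protein complex that holds sister chromatids together after DNA replication and shapes chromosomes into loops. Its ring is built from an SMC1-type and an SMC3 subunit closed by a kleisin, and a STAG-type subunit sits on the kleisin. Germ cells entering meiosis replace several mitotic subunits by meiotic ones, so that chromosomes can form an axis, pair, recombine and then release their sister chromatids in steps. Shugoshin protects the cohesin at centromeres from separase, the protease that cuts the kleisin.

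The RNA levels of 8 genes of this machinery were followed: the meiotic kleisins Rec8 and Rad21l, the kleisin of dividing cells Rad21, the meiotic SMC1-type subunit Smc1b, the shared subunit Smc3, the meiotic and the mitotic STAG-type subunits Stag3 and Stag1, and the shugoshin Sgo2a. They were chosen by name for their role in cohesin, and all 8 of 8 were found by gene symbol among the 32667 genes listed for spermatogonia and the 36888 listed for spermatocytes. Each of the 8 also passed the filter on low counts in every comparison.

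The series holds 14 RNA sequencing libraries of polyadenylated RNA from sorted mouse testis germ cells on a C57Bl6/J background. Spermatogonia (Spg) came from postnatal day 14 testes, sorted as EpCAM-positive and β2-microglobulin-negative live cells, from Dnmt3C KO/KO mice (3 libraries) and wild-type (WT) mice (3 libraries). Spermatocytes (Spc) came from mice older than 20 days, sorted by DNA content and cell size, from Dnmt3C KO/KO (4 libraries) and WT mice (4 libraries). Dnmt3C is a rodent DNA methyltransferase that methylates young retrotransposons in fetal male germ cells, and KO mice carry the knockout on both alleles. KO spermatocytes arrest in meiosis, so the sorted KO fraction lacks the later meiotic stages and the round spermatids that a WT testis holds. Stage, age and sorting scheme changed together between Spg and Spc and cannot be told apart.

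Library totals ran from 40555726 to 53323651 counts over genes and transposable element subfamilies. Dnmt3c itself had 58 to 116 counts in KO Spg, 53 to 89 in WT Spg, 52 to 57 in KO Spc and 11 to 28 in WT Spc, so its RNA was not lower in KO libraries and tells nothing about the genotype labels. Counts of the LINE1 subfamily L1Md_T made up 0.24% to 2.11% of KO libraries and 0.0143% to 0.0395% of WT libraries. Spermatogonial and pachytene markers placed WT Spc apart from the other fractions, while KO Spc overlapped Spg on the pachytene list. The summed level of 6 pachytene and later markers (Piwil1, Ccna1, Ldhc, Adam2, Hspa2, Tbpl1) was 8730 to 15800 CPM, normalised read counts scaled to the size of the library, in WT Spc and 186 to 319 in KO Spc, against 248 to 1540 in WT Spg and 129 to 142 in KO Spg. The summed level of 7 spermatogonial markers (Zbtb16, Gfra1, Kit, Stra8, Dmrt1, Sohlh1, Uchl1) was 36.4 to 269 CPM in WT Spc, 423 to 1100 in KO Spc and 1110 to 1750 in Spg. For 6 early meiotic markers (Sycp1, Sycp3, Dmc1, Spo11, Prdm9, Meiob) it was 1050 to 1870 CPM in WT Spc and 991 to 1830 in KO Spc. In Spg these early meiotic markers summed to 830 to 1030 CPM in WT and 549 to 897 in KO. In WT Spc, replicate 3 held the most spermatogonial and the least pachytene marker RNA and also the most RNA of 4 spermatid markers (Prm2, Tnp1, Acrv1, Spaca1), and in WT Spg, replicate 2 held the most pachytene marker RNA. The 4 Leydig cell markers summed to 41.4 to 231 CPM in KO Spc and 9.91 to 22.6 in WT Spc, the 3 macrophage markers to 12 to 61.1 and 1.84 to 3.35, the 3 peritubular markers to 14.9 to 143 and 2.75 to 8.5, and the 5 Sertoli cell markers to 43.3 to 195 and 17.8 to 57.3. In Spg the Sertoli cell markers summed to 77.2 to 250 CPM in KO and 52.7 to 208 in WT. The Leydig cell, macrophage and peritubular markers reached at most 7.57, 1.83 and 8.83 CPM in Spg. The part of these cell mixtures in the results below was not tested, and in bulk RNA fewer cells of a type and less RNA per cell cannot be told apart.

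The genes lie on 7 chromosomes, all autosomes. In the GRCm38 annotation Rec8 is at chr14:55618037-55625395, Rad21l at chr2:151645404-151668533, Rad21 at chr15:51962240-51991747, Smc1b at chr15:85064689-85131964, Smc3 at chr19:53600398-53645833, Stag3 at chr5:138280240-138312393, Stag1 at chr9:100597798-100959375 and Sgo2a at chr1:57995971-58025899. They hold between 9 merged exons (Sgo2a) and 36 (Stag1). DNA methylation acts at CpG dinucleotides, and the windows from 250 bases before to 50 bases after the RefSeq start (GRCm38.p6), matched for 7 of the 8 genes, differ in how many they hold. The windows of Rad21l and Smc3, which moved together in the comparisons below, and of Stag3, which moved the other way, are shown to make that difference visible, with each CpG in capitals and the gene strand read 5′ to 3′.
Rad21l (chr2:151668484-151668783, minus strand): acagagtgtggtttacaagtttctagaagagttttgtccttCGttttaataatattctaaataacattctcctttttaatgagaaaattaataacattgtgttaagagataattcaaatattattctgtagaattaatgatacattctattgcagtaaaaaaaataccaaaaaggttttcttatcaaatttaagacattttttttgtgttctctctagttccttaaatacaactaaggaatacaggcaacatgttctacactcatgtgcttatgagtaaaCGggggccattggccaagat
Smc3 (chr19:53600146-53600445, plus strand): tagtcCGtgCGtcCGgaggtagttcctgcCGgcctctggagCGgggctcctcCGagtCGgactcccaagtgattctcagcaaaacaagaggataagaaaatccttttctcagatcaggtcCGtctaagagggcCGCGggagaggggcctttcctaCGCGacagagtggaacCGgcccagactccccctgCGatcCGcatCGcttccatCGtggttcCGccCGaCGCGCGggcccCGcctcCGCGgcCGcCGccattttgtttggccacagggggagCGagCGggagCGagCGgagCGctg
Stag3 (chr5:138280259-138280558, plus strand): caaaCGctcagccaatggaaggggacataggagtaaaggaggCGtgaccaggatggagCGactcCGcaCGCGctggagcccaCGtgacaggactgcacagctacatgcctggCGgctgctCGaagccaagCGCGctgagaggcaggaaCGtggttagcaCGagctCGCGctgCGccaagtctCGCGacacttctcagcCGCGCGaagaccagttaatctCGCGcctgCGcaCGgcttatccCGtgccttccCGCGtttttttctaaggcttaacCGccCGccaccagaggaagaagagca

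The Rad21l window holds 2 CpGs and is 29.0% G and C, while the Smc3 window holds 32 CpGs at 65.0% and the Stag3 window 30 CpGs at 61.3%. Among all 32851 windows the median was 7 CpGs. The remaining windows held 43 CpGs (Stag1), 29 (Smc1b), 18 (Rec8) and, for the 2 RefSeq starts of Sgo2a, 11 and 19. Of 6 motifs searched on both strands, the E-box CACGTG was found once in the Stag3 window, at bases -170 to -165 from the start, and in 7.15% of all windows. The MYB core CAGTTG was found once, as its reverse complement, in a Sgo2a window at bases -227 to -222, and in 13.7% of all windows. GCATGCGC (NRF1), GGCGGGAA (E2F), CNCCTCAG (STRA8) and TGACGTCA (CRE) had no match in these windows of the 7 genes and stood in 2.71%, 2.19%, 7.94% and 1.79% of all windows. No methylation was measured in these libraries.

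Levels can be compared between genes only per length, here as CPM per kilobase of merged exon. In WT Spg the order was Smc1b (100.2 ± 16.7, SD, n = 3), Stag3 (79.6 ± 10.1), Rad21 (78.5 ± 17.0), Smc3 (49.4 ± 11.4), Stag1 (22.2 ± 3.77), Rad21l (14.8 ± 4.08), Rec8 (13.1 ± 1.96) and Sgo2a (12.9 ± 2.09). The ranges of the first 3 genes in this order overlapped, as did those of the last 4 from one gene to the next, while Smc3 stood apart from Rad21 above it and Stag1 below it. In WT Spc the order changed to Stag3 (188.4 ± 44.9, SD, n = 4), Smc1b (95.8 ± 12.2), Sgo2a (23.8 ± 5.32), Rad21 (13.4 ± 6.65), Stag1 (12.4 ± 2.71), Rec8 (9.56 ± 4.45), Smc3 (7.87 ± 4.68) and Rad21l (1.33 ± 1.48). Neighbours from Sgo2a to Smc3 overlapped in that order, and Stag3, Smc1b and Rad21l each stood apart from their neighbours. In KO Spc the order was Smc1b (90.3 ± 10.5, SD, n = 4), Stag3 (62.6 ± 11.2), Rad21 (53.5 ± 7.99), Smc3 (41.8 ± 4.11), Stag1 (22.7 ± 4.37), Rad21l (17.98 ± 2.54), Sgo2a (10.8 ± 2.07) and Rec8 (7.78 ± 4.30). In KO Spg it was Smc1b (101.8 ± 21.5, SD, n = 3), Rad21 (85.6 ± 10.2), Stag3 (77.7 ± 14.3), Smc3 (53.2 ± 7.98), Stag1 (22.5 ± 1.96), Rad21l (20.9 ± 5.97), Rec8 (13.9 ± 2.66) and Sgo2a (11.2 ± 1.04). In KO Spc and KO Spg neighbours overlapped except at the step to Stag1 and, in KO Spc, at the step from Rad21l to Sgo2a and, in KO Spg, at the step from Stag3 to Smc3. By longest transcript length the WT Spg range of Smc3 (41.48 to 65.24) overlapped those of Rad21 (63.14 to 96.97) and Stag1 (34.45 to 48.61). In KO Spc that of Smc3 (41.17 to 51.31) overlapped Stag1 (31.02 to 49.24), and Rad21l (14.67 to 20.87) overlapped Sgo2a (11.51 to 18.14). In WT Spc Stag1 (17.78 to 28.01) then lay higher than Rad21 (10.27 to 24.96), with overlap.

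**Figure D1:**
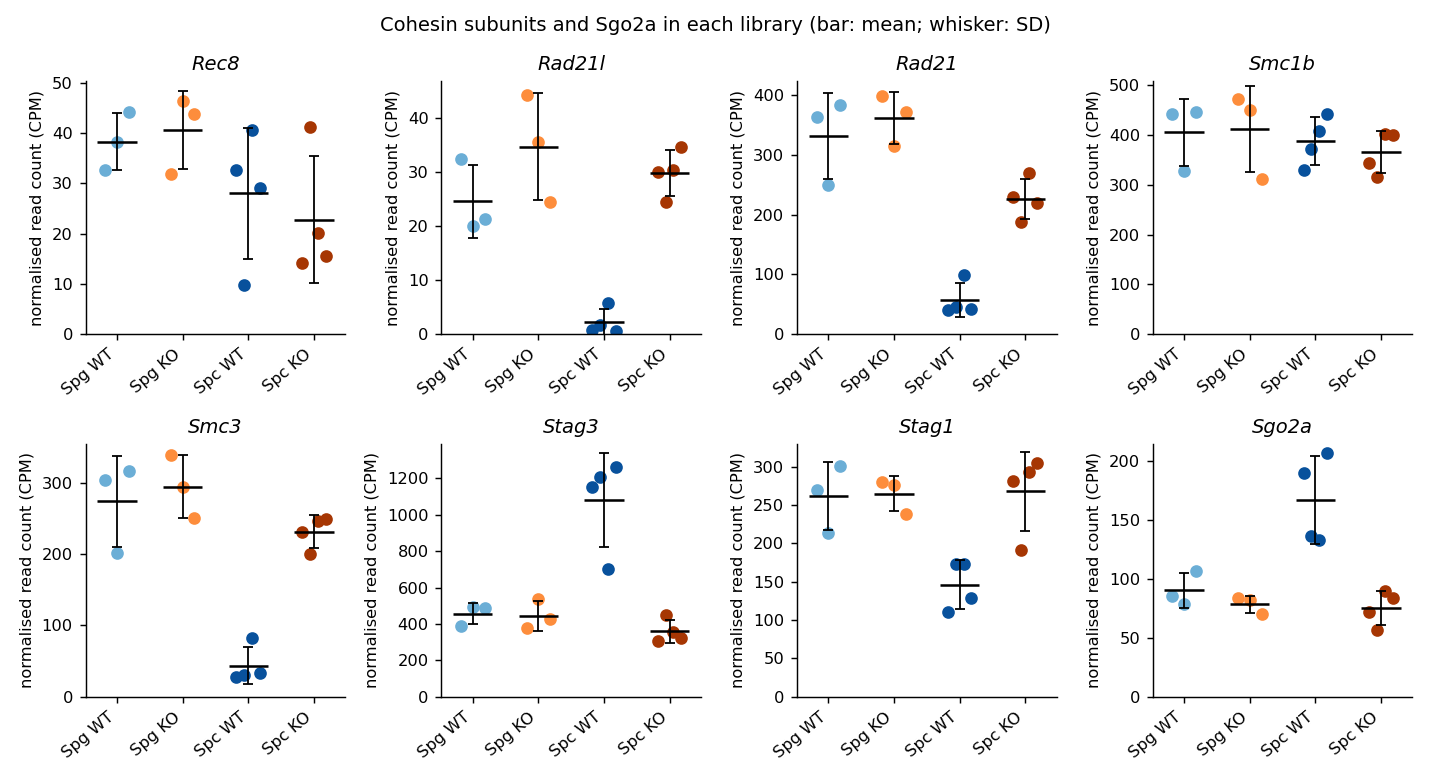
Normalised read counts (CPM, linear axes from 0) of the 8 genes in the 14 libraries, one point per library, with bars for the group mean and whiskers for the SD (n = 3 in Spg, n = 4 in Spc). WT Spc stand low for Rad21l, Rad21 and Smc3 and high for Stag3, with replicate 3 nearest to the other groups at 98.7 CPM for Rad21, 82.3 for Smc3 and 699.9 for Stag3.

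The first comparison asked whether loss of Dnmt3C changed these genes in spermatogonia, before the arrest. Of the 8 genes 0 passed the test (edgeR quasi-likelihood test, Benjamini-Hochberg adjusted p under 0.01 over all genes and transposable element subfamilies), where 23 of 21580 features tested, 0.107%, did so. With the replicate number as a block, which paired the Spg libraries, 155 features passed and again 0 of the 8. DESeq2 also called 0 of them, and 0 of the 8 had an unadjusted p under 0.05, against 1573 of all features.

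The fold changes in Spg were small beside the spread of the libraries. Rad21l had the widest difference, with 44.1, 35.4 and 24.3 CPM in KO and 32.3, 19.99 and 21.2 in the WT libraries. Its log2 fold change was 0.47 (95% interval -0.16 to 1.09, adjusted p = 0.932). Sgo2a followed with 83.3, 82.1 and 70.1 CPM in KO and 85.6, 78.4 and 106.5 in the WT libraries, at a log2 fold change of -0.23 (interval -0.56 to 0.11). The KO and WT libraries overlapped for both genes. Within same-numbered pairs KO lay above WT in every pair for Rad21l (edgeR with the replicate block, adjusted p = 0.306) but not for Sgo2a. The other 6 genes had log2 fold changes between -0.06 (Stag3) and 0.10 (Rad21), with intervals that reached at most -0.45 and 0.52. The median over the 8 genes was 0.03, as over all features tested (0.03).

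In spermatocytes 6 of the 8 genes differed between KO and WT, in opposite directions for mitotic and meiotic STAG subunits. Rad21l, Smc3, Rad21 and Stag1 were higher in KO Spc, by 13.8, 5.43, 4.08 and 1.87 times. Stag3 and Sgo2a were lower in KO Spc, being 2.98 and 2.18 times higher in WT, and Rec8 and Smc1b did not pass the test. Over all 22848 features tested 57.4% were called, 27.4% higher and 30.1% lower, so a share of 6 in 8 is not far from the background of this comparison. The median log2 fold change was 0.42 over the 8 genes and 0.11 over all features.

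Among the kleisins, Rad21l was at 29.97, 24.3, 30.3 and 34.6 CPM in the KO Spc libraries and at 0.741, 1.66, 5.82 and 0.626 in WT Spc. Every KO library lay above every WT library, and the highest WT value was that of replicate 3. Its log2 fold change was 3.79 (SE 0.68, n = 4 against 4, adjusted p = 0.000778), and 4.90 without WT replicate 3. RAD21L joins cohesin early in meiosis and takes part in axis formation and homolog pairing.

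Rad21, whose protein is cut by separase at mitotic anaphase, was at 229.6, 187, 269 and 220.0 CPM in KO Spc and at 40.6, 45.5, 98.7 and 41.7 in WT Spc. The groups did not overlap, and WT replicate 3 again stood above the other WT libraries. The log2 fold change was 2.03 (SE 0.30, adjusted p = 0.000271), and 2.43 without that replicate.

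Rec8, the kleisin that keeps sister chromatids joined until the second meiotic division, behaved differently. Its values were 14.2, 41.3, 20.2 and 15.5 CPM in KO Spc and 32.6, 9.85, 40.6 and 29.2 in WT Spc. Replicate 2 was the highest library in KO and the lowest in WT, and the groups overlapped over most of their range. The log2 fold change was -0.29 (interval -1.35 to 0.77, adjusted p = 0.602), so differences of up to about the size of that interval were not detectable with 4 libraries a group.

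For the ring's SMC subunits the pattern was uneven. Smc3, the partner of either SMC1-type subunit, was at 231, 199.7, 247 and 248.9 CPM in KO Spc and at 28.3, 30.4, 82.3 and 33.3 in WT Spc, without overlap. Its log2 fold change was 2.44 (SE 0.35, adjusted p = 0.000196), and 2.94 without WT replicate 3. Smc1b, which pairs with SMC3 in meiotic cohesin, was at 344, 316, 401 and 401 CPM in KO Spc and at 329, 371, 409 and 443 in WT Spc. The Smc1b groups overlapped almost fully, with a log2 fold change of -0.06 (interval -0.47 to 0.34, adjusted p = 0.763).

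The STAG-type subunits moved apart. Stag3, the meiotic form that stabilises the meiotic kleisins on the chromosome axis, was at 308, 450.0, 357 and 321 CPM in KO Spc and at 1153, 1205, 699.9 and 1263 in WT Spc. The groups did not overlap, and its log2 fold change was -1.57 (SE 0.25, adjusted p = 0.000339). Stag1, a form found in somatic cells, was at 282, 192, 294 and 305 CPM in KO Spc and at 110.0, 173, 173 and 129 in WT Spc. Its log2 fold change was 0.90 (SE 0.22, adjusted p = 0.00408), with the lowest KO library, replicate 2, close above the WT range. This call was held in 3 of the 8 fits that left out 1 library and was lost without KO replicate 1 (adjusted p = 0.012), 3 (0.0131) or 4 (0.0143) and without WT replicate 1 (0.0186) or 4 (0.0175).

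Sgo2a, the shugoshin that shields centromeric cohesin in meiosis I, was at 72.1, 56.9, 89.6 and 83.8 CPM in KO Spc and at 189, 136.5, 133 and 207 in WT Spc, without overlap. The log2 fold change was -1.13 (SE 0.24, adjusted p = 0.00205). Sgo2b, a near copy of Sgo2a that could share reads with it, reached at most 0.301 CPM in any library. With Spc replicates 1 and 4 summed, by far the most similar libraries within each genotype, the calls for Sgo2a (adjusted p = 0.0186) and Stag1 (adjusted p = 0.0406) were lost.

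The scaling of the libraries shifts all genes together. Scaling by library totals alone moved the median over all genes from 0.11 to 0.79. On that scale, with the shift left in the values, Rad21l (4.27), Smc3 (3.02), Rad21 (2.63), Stag1 (1.55) and Stag3 (-0.82) kept their directions and calls. Sgo2a kept its direction without its call (-0.40, adjusted p = 0.0901), and Rec8 (0.43) and Smc1b (0.62, adjusted p = 0.0148) did not pass the test and stayed below the median over all genes on both scales.

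**Figure D2:**
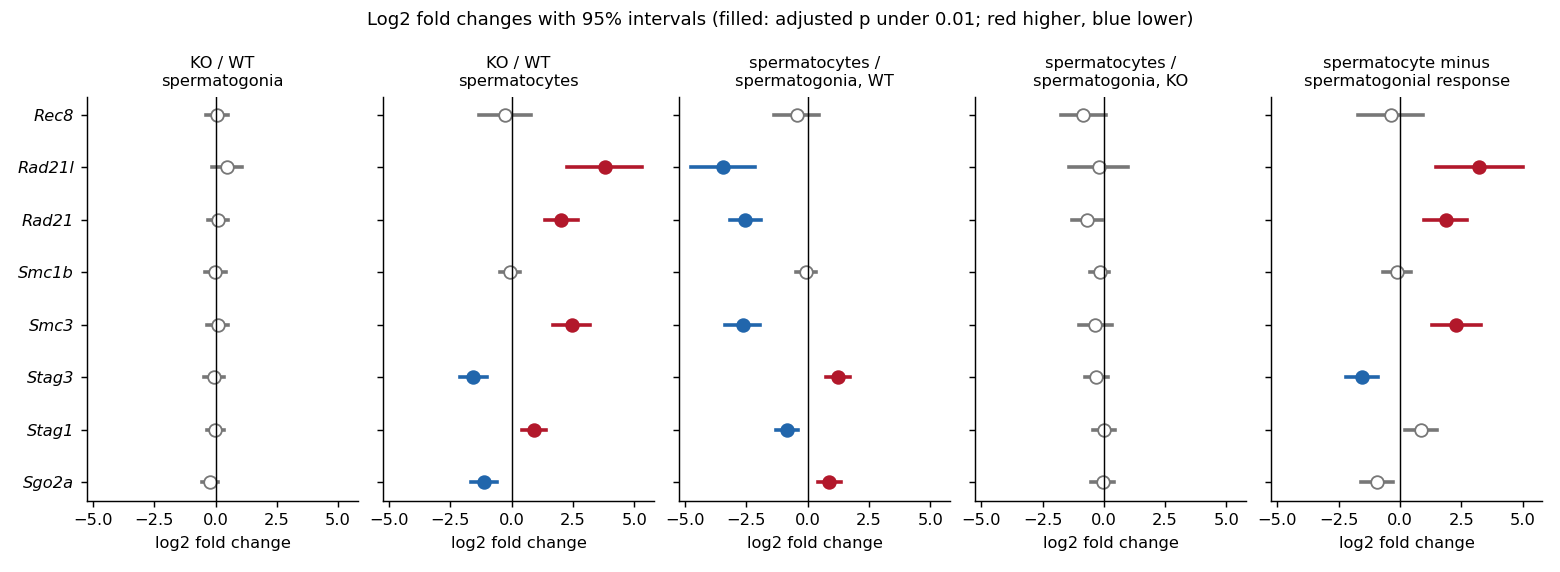
Log2 fold changes (points) with 95% intervals (lines) of the 8 genes in the 5 comparisons, from edgeR, with filled points where the adjusted p is under 0.01. No gene passed in KO against WT Spg or between the stages in KO, while 6 of 8 passed in KO against WT Spc and in WT Spc against Spg, comparisons that share the 4 WT Spc libraries; by library totals Sgo2a no longer passes in either of them, nor Stag3 in the second.

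Because subunits of one type replace each other in the ring, the share that each takes of its type's reads per kilobase was computed within each library. These shares do not depend on how libraries are scaled, and they are given as a description with no test. Rec8 made up 52.5%, 22.2%, 34.0% and 49.3% of kleisin reads per kilobase in WT Spc, and 6.28%, 19.3%, 7.76% and 6.76% in KO Spc. The lowest WT library and the highest KO library were both replicate 2 and did not overlap, although the Rec8 level itself did not differ by the test. In Spg the share of Rec8 was 9.56% to 15.5% in WT and 8.23% to 14.2% in KO.

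Rad21l took 1.87% to 8.62% of kleisin reads in WT Spc and 20.1% to 26.7% in KO Spc. In Spg it took 10.8% to 16.7% in WT and 12.5% to 20.2% in KO. Rad21 remained the most abundant kleisin by mean share in all 4 groups, with 73.5% ± 3.16 in WT Spg, 71.0% ± 4.08 in KO Spg (SD, n = 3 each), 55.7% ± 11.5 in WT Spc and 67.3% ± 4.95 in KO Spc (SD, n = 4 each). In WT Spc replicates 1 and 4 the Rec8 share was above the Rad21 share.

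Stag3 made up 95.1%, 93.0%, 87.1% and 94.8% of STAG-type reads per kilobase in WT Spc and 55.4%, 73.7%, 60.5% and 54.6% in KO Spc, which lay close to the 62.6% to 76.6% of the Spg libraries of both genotypes. Stag1 took 4.41% to 10.5% in WT Spc and 15.3% to 25.2% in KO Spc, and Stag2, its X-linked mitotic relative, 0.479% to 2.47% and 10.96% to 20.2%. Smc1b dominated its type in every library, at 98.1% to 99.7% of SMC1-type reads in WT Spc, 79.0% to 86.6% in KO Spc and 84.4% to 91.0% in Spg, with Smc1a as the rest. Lengths taken from the longest transcript instead moved the mean Stag1 share to 30.3% from 22.3% in KO Spc and to 9.71% from 6.52% in WT Spc, and the mean Rec8 share in WT Spc to 44.8% from 39.5%.

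**Figure D3:**
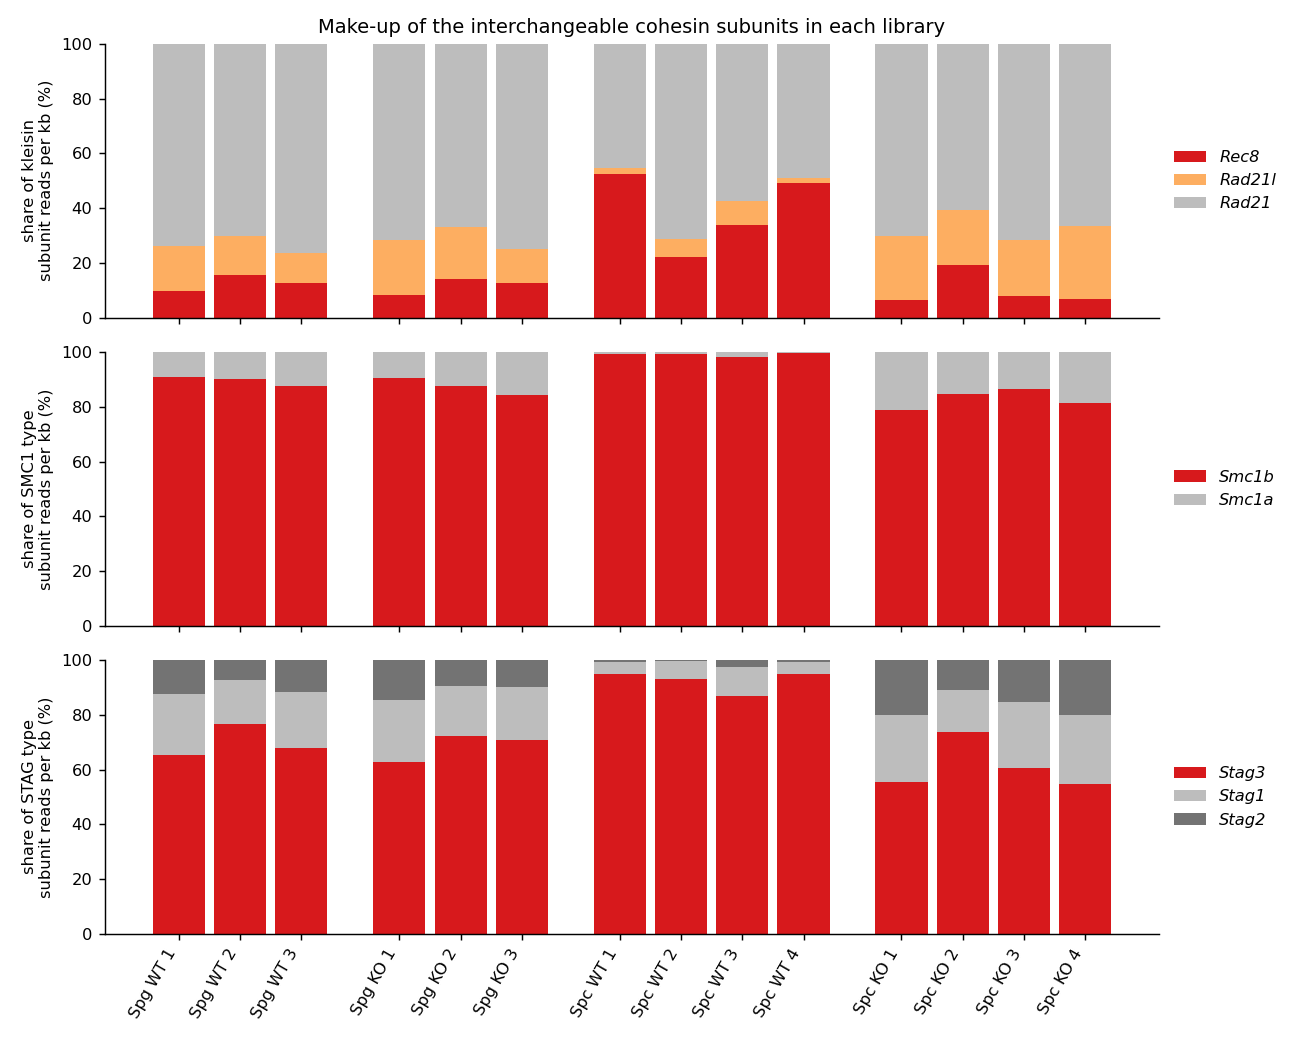
Share of each interchangeable subunit among the reads per kilobase of its type, in percent, as stacked bars for the 14 libraries. WT Spc bars show more Rec8 (22.2% to 52.5%) and Stag3 (87.1% to 95.1%) than the bars of any other group, and Smc1a almost vanishes there.

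The stage comparison within WT asked how the cohesin genes differ between spermatogonia and spermatocytes where meiosis proceeds. It shares the WT Spc libraries with the genotype comparison above, so agreement between the 2 is not independent evidence. Of 25318 features tested 51.4% were called, 28.9% higher and 22.5% lower in Spc, and 6 of the 8 genes were called. Rad21l (-3.46, SE 0.60, adjusted p = 0.000236), Smc3 (-2.65, SE 0.33, adjusted p = 2.3e-05), Rad21 (-2.55, SE 0.29, adjusted p = 1.45e-05) and Stag1 (-0.84, SE 0.21, adjusted p = 0.00313) were lower in WT Spc. Stag3 (1.24, SE 0.22, adjusted p = 0.000298) and Sgo2a (0.89, SE 0.22, adjusted p = 0.00274) were higher by this scaling. The Sgo2a call was held in 6 of the 14 fits that left out 1 library and was lost without any 1 of the 6 Spg libraries or KO Spc replicate 1 or 4 (adjusted p from 0.0106 to 0.0382), and that for Stag1 was lost without WT Spc replicate 1 (adjusted p = 0.0112) or 4 (adjusted p = 0.0109). With Spc replicates 1 and 4 of each genotype summed, both calls were lost (adjusted p = 0.0101 for Sgo2a and 0.0147 for Stag1), and that for Sgo2a was also lost with no filter on low counts (adjusted p = 0.0118).

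The median over the 8 genes was -0.64, against 0.06 over all features. By library totals, which moved the median over all genes to -0.76, Stag3 (0.39) and Sgo2a (0.05) kept their sign without their calls, and Smc1b was called lower (-0.87, adjusted p = 0.00178), close to that median, where it was at -0.06 before. Rec8 was at -0.45 (interval -1.37 to 0.47) and did not pass. The WT Spg values behind these changes were 270.0, 213 and 301 CPM for Stag1, 390, 491 and 488 for Stag3, and 363, 249.8 and 384 for Rad21. For Smc3 they were 304, 201 and 317 CPM, and for Smc1b 443, 328 and 446, with replicate 2 the lowest library for all of these genes but Stag3. For Rec8 they were 32.7, 38.2 and 44.2 CPM.

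Within KO, spermatocytes against spermatogonia gave 0 calls among the 8 genes, where 2.99% of the 25318 features were called. One of the 8, Rad21, had an unadjusted p under 0.05 (6209 of all features did), with a log2 fold change of -0.68 (interval -1.29 to -0.06, adjusted p = 0.163). Its KO Spg values were 399, 315 and 372 CPM, all above the 4 KO Spc values. Stag3 was at 375, 536 and 425 CPM in KO Spg and at a log2 difference of -0.31 (interval -0.77 to 0.15), and Rad21l at -0.22 (interval -1.43 to 1.00). The width of these intervals means that equal levels in KO Spg and KO Spc were not shown.

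The interaction tested directly whether the response to KO differed between stages. Of all features 24.9% were called, 10.7% with a higher and 14.3% with a lower response in Spc, and 4 of the 8 genes were called. The difference of the log2 fold changes was 3.24 for Rad21l (SE 0.83, adjusted p = 0.00719), 2.30 for Smc3 (SE 0.46, adjusted p = 0.00187), 1.87 for Rad21 (SE 0.41, adjusted p = 0.00311) and -1.56 for Stag3 (SE 0.31, adjusted p = 0.00176). Stag1 (0.86, adjusted p = 0.0325) and Sgo2a (-0.94, adjusted p = 0.0222) did not pass, and neither did Rec8 (-0.38) or Smc1b (-0.11). The call for Rad21l was held in 7 of the 14 fits that left out 1 library, and its value was 4.37 without WT Spc replicate 3. It was lost without KO Spg replicate 1, 2 or 3, WT Spg replicate 1, KO Spc replicate 4, or WT Spc replicate 1 or 2 (adjusted p from 0.0108 to 0.0191). Stag1 passed without KO Spc replicate 2 (1.08, adjusted p = 0.00544) and Sgo2a without WT Spc replicate 3 (-1.05, adjusted p = 0.00897). With Spc replicates 1 and 4 summed, the calls for Rad21l (2.90, adjusted p = 0.0162) and Rad21 (1.72, adjusted p = 0.0109) were lost. The call for Stag3 was lost by library totals (-0.78, adjusted p = 0.0394), where Stag1 was called instead (1.53, adjusted p = 0.00412) and the median over all genes moved from 0.20 to 0.90.

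The genes that load, release, cut and protect cohesin were described as a list of 22, with the mitotic paralogs Smc1a and Stag2 among them. In KO against WT Spg edgeR called 0 of the 22, where 0.107% of all features were called, and DESeq2 called 1, Meikin. The list median was 0.03, as over all features. Smc1a was at 0.24 and Stag2 at 0.07. Meikin, which works with shugoshin at meiotic centromeres, was the 1 gene with an unadjusted p under 0.05, singled out after its value was seen. It ran from 0.704 to 0.822 CPM in KO Spg and from 2.06 to 9.65 in WT Spg (log2 fold change -2.81, adjusted p = 0.0922 with edgeR and 2.19e-05 with DESeq2), beside the higher pachytene marker level of WT Spg given above.

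In KO against WT Spc 15 of the 21 tested were called, 11 higher and 4 lower, with a list median of 0.83 against 0.11 over all features. Over all features 57.4% were called, 27.4% higher and 30.1% lower, so the share called is not far from the background. The count was 9 without WT Spc replicate 1 and 16 without WT Spc replicate 3. The 3 with the largest rise were the SMC1-type subunit Smc1a (4.44, SE 0.55), the deacetylase Hdac8 (4.39, SE 0.49), which recycles SMC3, and the mitotic subunit Stag2 (3.33, SE 0.43). Smc1a ran from 81.1 to 131.6 CPM in KO Spc and from 2.05 to 11.4 in WT Spc, and Stag2 from 96.6 to 171 and from 8.95 to 28.6, without overlap. All 3 genes are on the X chromosome, where the 912 genes tested had a median log2 fold change of 2.98 and 68.1% were called higher, against 0.02 and 26.2% of the 20909 autosomal genes. None of the 8 cohesin and shugoshin genes described above is X-linked.

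The 3 with the largest fall were Meikin (-4.32, SE 0.39), the securin Pttg1 (-2.65, SE 0.24), which holds separase inactive, and the loader subunit Nipbl (-1.62, SE 0.40). Meikin ran from 1.22 to 3.50 CPM in KO Spc and from 39.99 to 64.7 in WT Spc, and Pttg1 from 17.1 to 23.1 and from 91.9 to 157. Nipbl ran from 164 to 405 CPM in KO Spc and from 501 to 1410 in WT Spc. The groups did not overlap for any of the 3. The Nipbl call was lost by library totals (-0.87, adjusted p = 0.0234), with Spc replicates 1 and 4 summed (0.0177), and without KO replicate 2 (0.013) or 3 (0.0148) or WT replicate 1 (0.0116) or 4 (0.0118).

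Between WT stages 14 of the 22 were called, 3 higher and 11 lower in Spc, where 51.4% of all features were called, 28.9% higher and 22.5% lower. Smc1a (-3.73) and Stag2 (-2.79) were lower, with the CTCF paralog Ctcfl (-4.31) and the SMC3 acetyltransferase Esco2 (-2.87) among the largest falls, and Meikin (3.39), Pttg1 (2.34) and Nipbl (2.28) were the 3 that were higher. Between KO stages, where 2.99% of all features were called, 1 of the 22 was called, Hdac8 (2.12, SE 0.43, adjusted p = 0.00811), which ran from 0.722 to 1.68 CPM in KO Spg and from 3.71 to 6.89 in KO Spc. A call in this list was held in 3 of the 14 fits that left out 1 library, those without KO Spc replicate 2 or WT Spc replicate 2 or 3. The Hdac8 call was also lost by library totals (adjusted p = 0.0175), with no filter (0.0121), with the replicate block (0.0155) and with Spc replicates 1 and 4 summed (0.034). Smc1a (0.40) and Stag2 (0.42) were not called there. In the interaction 6 of the 22 were called, 5 with a higher response in Spc, led by Smc1a (4.13), Hdac8 (3.93) and Stag2 (3.21), and 1 with a lower one, Pttg1 (-2.67). The share called in either direction is near that over all features (24.9%). The split by direction differs, with 10.7% higher and 14.3% lower over all features. The 3 leading genes are X-linked, and on the X 38.4% of 985 genes were called higher here, against 9.86% of 23242 autosomal genes. The count of 6 became 10 without WT Spg replicate 2, KO Spc replicate 2 or WT Spc replicate 3. By library totals it became 12, with 11 higher and 1 lower.

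**Figure D4:**
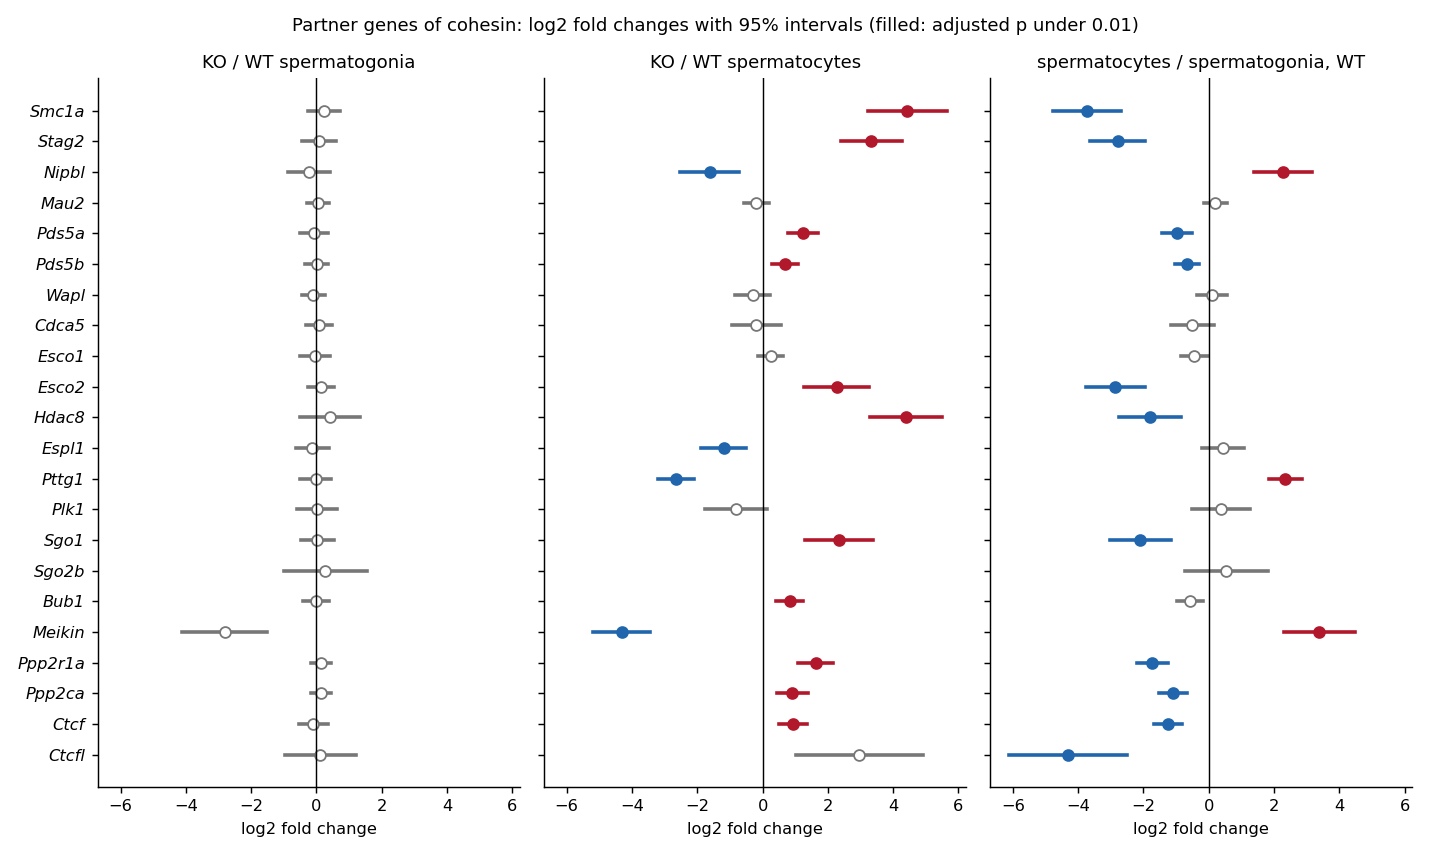
Log2 fold changes (points) with 95% intervals (lines) of the 22 genes that load, release, cut or protect cohesin or replace its subunits, in 3 comparisons, with filled points where the adjusted p is under 0.01. Smc1a, Stag2 and Hdac8 stand highest in KO against WT Spc (3.33 to 4.44) and Meikin lowest (-4.32), while 0 passed in Spg with edgeR (DESeq2 called Meikin there); Sgo2b is absent from the middle panel because it was not tested there.

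Across the 14 libraries the cohesin genes fell into patterns, described by Pearson's r of log2 CPM with no test, since libraries of one group share stage, genotype and sort. Smc3 followed Rad21 (r = 0.99) and Rad21l (0.98), and Stag1 followed them with r between 0.89 and 0.92. Stag3 ran against these 4 genes (r from -0.95 to -0.88) and along with Sgo2a (0.86). Rec8 and Smc1b correlated with none of the other genes beyond 0.33 in size. Leaving Sgo2a aside, the 3 genes most like each member among 16917 genes were Nutm1 (0.96), Gm1141 (0.92) and Septin3 (0.91) for Rec8, and Brip1, Hif1a and Pdlim5 (0.99 to 1.00) for Rad21l. They were Kdm1b, Ercc6l and Mllt3 (0.99 each) for Rad21, Syn2, Epb41 and Ankrd50 (0.99 to 1.00) for Smc3, and Rbbp8 (0.84), Brca2 (0.82) and Tpr (0.81) for Smc1b. Tedc1, Faah and Zfp202 (0.99 each) were most like Stag3, and Ncapd3, Kpna1 and Golph3 (0.98 each) most like Stag1.

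Within the Spc groups the levels of some of these genes differed between libraries that also differed in stage markers, but not in 1 direction. WT Spc replicate 3, with 269 CPM of spermatogonial markers against 36.4 to 156 in the other WT Spc libraries and 8730 CPM of pachytene markers against 14000 to 15800, but also the most spermatid marker RNA (777 CPM against 34.4 to 273), had the highest Rad21, Smc3 and Rad21l and the lowest Stag3 of its group. The 6 genes called in KO against WT Spc were called without that library too, with Stag1 at 0.99 (adjusted p = 0.00393) and Sgo2a at -1.21 (adjusted p = 0.00108). KO Spc replicates 2 and 3 held more spermatogonial marker RNA (1100 and 1070 CPM) than replicates 1 and 4 (433 and 423), yet replicate 2 had the lowest Rad21 (187 CPM), Smc3 and Stag1 and the highest Stag3 of its group while replicate 3 had the highest Rad21 (269 CPM).

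**Figure D5:**
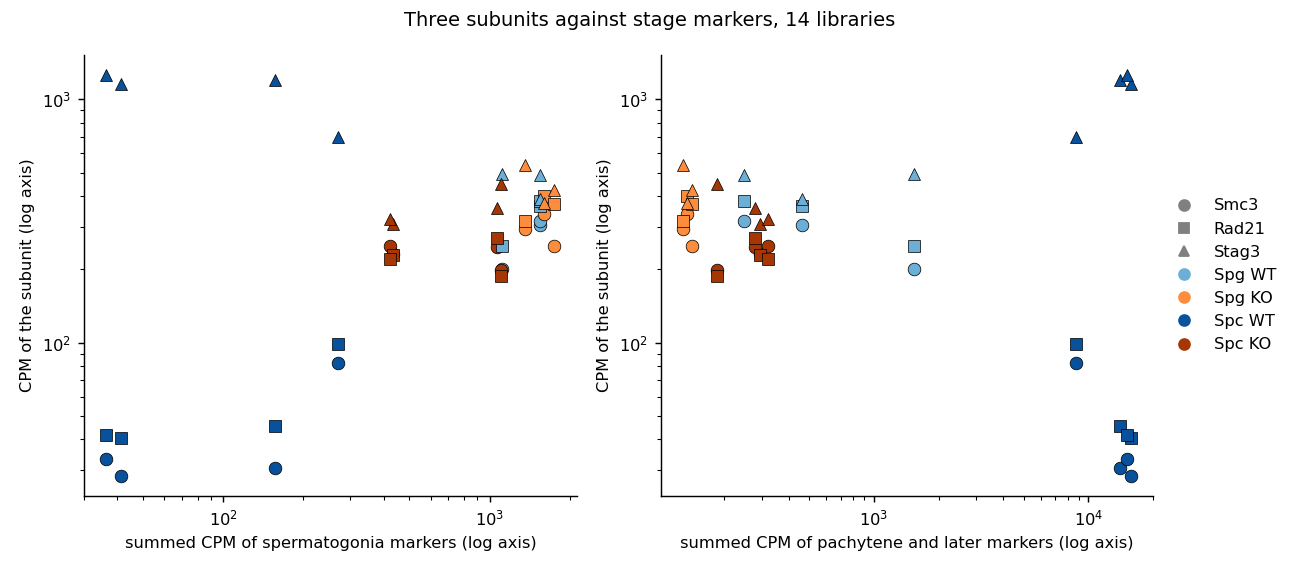
CPM of Smc3, Rad21 and Stag3 against the summed CPM of 7 spermatogonial markers (left) and of 6 pachytene and later markers (right), in the 14 libraries, all on log axes. The 4 WT Spc libraries lie apart, at 8730 to 15800 CPM of pachytene markers, and the KO Spc libraries lie near the Spg libraries on all 3 genes.

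Since Dnmt3C acts on retrotransposons, copies inside the cohesin genes were looked up in the deposited values per transposable element copy, which are in TPM, a length-corrected share, over such copies alone. The 8 genes contained between 12 copies (Rec8) and 640 (Stag1). Copies of the L1Md_T, A, Gf, F, F2 and F3, IAP and MMERVK10C families were few. There were 13 in Stag1, 3 in Smc1b, 2 in Rad21l, 1 each in Rad21, Smc3 and Stag3, and 0 in Rec8 and Sgo2a. All were L1Md copies, and those in Rad21l and Stag3, with most of those in Stag1 and Smc1b, were L1Md_F2 or L1Md_F3. Of these copies, the one with the highest value was an L1Md_T fragment in an intron of Smc3 (chr19:53642676-53643091), on the strand of the gene. It was at 22.6 to 41.4 TPM in KO Spc and 0.991 to 10.9 in WT Spc. In Spg, where Smc3 RNA did not differ, this copy was at 36.2 to 43.3 TPM in KO and 25.7 to 52.9 in WT, so its values ran in parallel with those of its host gene.

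An L1Md_A copy in an intron of Smc1b (chr15:85079152-85085391, gene strand) was at 1.53 to 2.94 TPM in KO Spc and 0.066 to 1.06 in WT Spc, and at 2.93 to 4.30 and 1.74 to 4.63 in KO and WT Spg. Summed over all its copies with any value, all of them in introns, Smc1b held a mean of 290.3 TPM of element signal in KO Spc and 72.0 in WT Spc, while the Smc1b gene level did not pass the test between these groups. An L1Md_T copy in Stag1, against the strand of the gene (chr9:100920411-100922324), was at 0.9998 to 2.91 TPM in KO Spc and 0.269 to 0.849 in KO Spg and was listed at 0 in every WT library. TPM over element copies alone shift whenever the whole element pool shifts, so these values were not tested. Signal from an intronic copy on the strand of its host gene cannot be told apart from unspliced RNA of that gene.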

How the data were processed

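Counts per gene and transposable element subfamily were deposited as raw whole numbers. The authors aligned reads to GRCm38 (GENCODE M25) with STAR 2.7.3a, keeping up to 100 alignments per read, counted with TEtranscripts in its multi mode with reverse strandedness, and tested with DESeq2 1.44.0; the submitters' notes also name cutadapt 4.0. The deposited TPM per element copy came from TElocal and are scaled over element copies alone. Columns of fold changes, p-values and adjusted p-values from the authors' comparisons were not used. A spermatogonia replicate of each genotype was left out by the authors for RNA quality and is not analysed here.

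Libraries were scaled by TMM over genes and elements, low features were removed with filterByExpr, and groups were compared with the edgeR 4.0.16 quasi-likelihood test (R 4.3.3), two-sided, with Benjamini-Hochberg adjustment over all features tested and a threshold of 0.01. Genotypes were compared within each stage, and the stage contrasts and the interaction came from 1 fit of all 14 libraries over features listed for both stages. The fits were tested on simulated data. CPM were computed from the TMM-scaled library sizes, log2 CPM used a pseudocount of 0.5, and lengths came from GENCODE M21 (GRCm38). The 8 genes were named in every comparison. Of the 22 partner genes, Smc1a and Stag2 were always named, with the 3 largest called rises and falls, and for each of the 8 genes the 3 with the highest correlation, which for Sgo2a are not reported here. Members and lists were chosen with earlier results of these data known.

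Alternatives were DESeq2 1.42.0, other scalings, other filters, a threshold of 0.05, the replicate number as a block, and leaving out each library. Deviations of same-numbered KO and WT libraries correlated at 0.667, 0.167 and 0.237 in Spg (littermates, per the labels), so those numbers were taken to pair the libraries, although KO replicate 2 correlated better with WT replicate 3 (0.305) than with its own number. Replicates 1 and 4 of each Spc genotype were much more alike (chi-square per degree of freedom 12.1 in KO and 17.9 in WT) than other Spc pairs (127 to 338) but differed beyond sampling noise, so they were kept as separate libraries and also summed as an alternative. The authors' figure legends give 3 biological replicates for Spc, while 4 Spc libraries of each genotype are analysed here. Whether replicates 1 and 4 came from the same animals or sort is not given in the sources used here, and if so the Spc groups hold 3 independent samples each. The labels speak of littermates but do not say which animals gave each replicate, so p-values measure the spread between these libraries. Total counts ran from 40555726 to 53323651 per library, and the spread between libraries rather than counting error limits the precision.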

Additional observations from a re-analysis of the deposited data

Results flagged for a closer look

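In WT Spc, replicate 3 stood far from the other 3 libraries for 2 genes. Rad21 was at 98.7 CPM there against 40.6 to 45.5 in the others, and Smc3 at 82.3 against 28.3 to 33.3. In both cases the gap to the next library, relative to the range of the group, was above Dixon's 95% critical value of 0.829 for 4 libraries. Of the 16 groups of 4 libraries looked at, 2 were past that value, and chance alone gives about 1 in 20. Both flags came from the same library in 2 genes that correlated closely (r = 0.99), so they are not independent and cannot be set against that rate. The same library held the most spermatogonial (269 CPM) and the most spermatid marker RNA (777 CPM) of its group, and the part of that RNA in these values was not tested.

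For 4 genes the response to KO differed between spermatocytes and spermatogonia by the interaction term. The difference of log2 fold changes was 3.24 for Rad21l, 2.30 for Smc3, 1.87 for Rad21 and -1.56 for Stag3. The Smc3 call was held under all 23 alternatives run, while those for Rad21l, Rad21 and Stag3 were lost under some of them, as given above.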

How the results depend on the processing

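In KO against WT Spc, Rad21l, Rad21, Smc3 and Stag3 kept their direction and call under all 17 alternatives run, and Sgo2a under 15 of them. Sgo2a lost its call by library totals (-0.40) and with Spc replicates 1 and 4 summed (-1.04, adjusted p = 0.0186), and Stag1 with those replicates summed (0.78, adjusted p = 0.0406) and with the replicate block (0.90, adjusted p = 0.0147). Same-numbered KO and WT Spc libraries correlated at only 0.059, 0.197, -0.034 and 0.111, so the numbers were not taken to pair them. KO Spc replicates 1 and 2 correlated best with their own number, replicate 3 with WT replicate 2 (0.053) and replicate 4 with WT replicate 1 (0.114), and the block moved the count over all features from 13124 to 11629. It changed no other call among the 8 genes in the 5 comparisons.

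Signs turned only for genes that were not called, in part with a shift of all genes. In Spg these were Smc1b (0.013) and Stag1 (0.011) by library totals and Stag1 (0.002) with the block. Leaving out 1 Spg library gave -0.058 to 0.222 for Rec8, -0.048 to 0.187 for Rad21, -0.12 to 0.16 for Smc1b, -0.08 to 0.18 for Smc3, -0.22 to 0.06 for Stag3 and -0.112 to 0.077 for Stag1. By library totals, which moved the median over all genes from 0.11 to 0.79 in KO against WT Spc and from 0.20 to 0.90 in the interaction, Rec8 was at 0.43 and Smc1b at 0.62 in the former and at 0.34 and 0.61 in the latter, below those medians as before. With 1 library left out Smc1b ran from -0.161 to 0.009 in KO against WT Spc, from -0.314 to 0.022 between WT stages and from -0.193 to 0.086 in the interaction. Between KO stages Stag1 (0.02) turned to -0.011 with DESeq2 and with its size factors, -0.082 by library totals, -0.034 with no filter, -0.016 with a mean count of at least 50, -0.004 with the block and -0.02 with replicates summed. There it ran from -0.11 to 0.10 with 1 library left out, and Sgo2a from -0.19 to 0.014.

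Among the 8 genes the count of calls fell from 4 to 2 in the interaction with replicates summed, which ended the calls for Rad21l and Rad21. Between WT stages Sgo2a and Stag1 lost their calls with replicates summed and Sgo2a with no filter. Among the 22 partner genes it was 1 with DESeq2 in Spg (Meikin), and 9 with replicates summed and 9 to 16 with 1 library left out in KO against WT Spc. Between KO stages it was 2 with DESeq2 and at adjusted p under 0.05, 0 by library totals, with no filter, with the block and with replicates summed, and 0 to 1 with 1 library left out. In the interaction it was 12 by library totals and at adjusted p under 0.05, and 5 to 10 with 1 library left out. The cause was not tested; summing replicates and leaving out a library reduce the number of samples. Over all features tested, 23 calls in Spg became 538 with DESeq2, 157 with no filter, 155 with the block, and 4 to 24 with 1 library left out. Between KO stages 756 became 2414 with DESeq2, 377 with the block, 349 with replicates summed, and 112 to 1014 with 1 library left out. In the interaction 6314 became 9995 with DESeq2, 3543 with replicates summed, and 3825 to 9090 with 1 library left out.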
